A study of Homo sapiens with 4 samples.

Results

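A set of 10 genes was followed in NCI-H520, an established human cell line derived from a squamous carcinoma of the lung, with and without exposure to Hx1R8. Apart from MTAP, included as a chromosomal neighbour, these genes act in the gate from G1 into S phase. They were chosen by name from the 28277 genes of the deposited count table. They are the CDK inhibitor genes CDKN2A and CDKN2B, their chromosomal neighbour MTAP, the kinase genes CDK4 and CDK6, the D-type cyclin genes CCND1, CCND2 and CCND3, the retinoblastoma gene RB1 and the E-type cyclin gene CCNE1. The series concerns the self-association of the transcription factor SOX2 and drug resistance, and the sources used here do not describe Hx1R8 further. Both groups were wild-type (WT) NCI-H520 cells: the Vehicle group (2 libraries) was given ultrapure water, and the Hx1R8 group (2 libraries) was given 10 µM Hx1R8, for 12 h. One cell line was used, and no label says that the replicates came from separate cultures, so the spread behind each p-value is that between these samples alone and may be technical.

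In G1, D-type cyclins bind CDK4 or CDK6, and the active kinases phosphorylate the RB protein. RB then releases E2F transcription factors, which drive CCNE1 and the genes of DNA replication. The INK4 proteins, made from CDKN2A and CDKN2B, hold CDK4 and CDK6 inactive. The 9p21 region that carries CDKN2A is often deleted in squamous lung cancer, frequently together with MTAP, and the 11q13 region that carries CCND1 is often gained.

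Total counts ran from 17259403 to 20920857 reads per library. Of 14482 genes tested with all 4 libraries, 3 differed between the groups. With any 1 library left out more genes differed, but the tested genes were then chosen anew and 1 group held a single library. Libraries compared in pairs differed by a chi-square per gene of 1.49 to 2.96, highest between the Vehicle replicates, and the 3 pairs with Vehicle replicate 2 had the 3 highest values. Of the squamous markers, SOX2 was at 528 CPM in Vehicle (CPM are counts scaled to the library total) and KRT6A at 19.8 CPM. TP63 was at 0.431 CPM and KRT5 at 1.67 CPM, while KRT14 and DSG3 had no read in any library, so the basal markers of the labelled squamous type were at or near 0. All 4 simple epithelial markers were above 1 CPM, with a summed level of 1444 to 1486 CPM in Vehicle and 1435 to 1456 CPM in Hx1R8. The 5 immune markers summed to at most 2.23 CPM and the 3 endothelial markers to at most 0.857 CPM. PTPRC, CD3E and PECAM1 were at 0. The 4 fibroblast markers summed to 8.24 to 8.82 CPM, mostly from COL1A1 at 7.31 to 8.22 CPM. COL1A2 had at most 4 reads, DCN at most 1 read and PDGFRB at most 0.8125 CPM. In bulk RNA, fewer cells with a transcript and less of it per cell cannot be told apart.

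Transcripts of 9 of the 10 genes were abundant enough to test, and none of the 9 was called different between water and Hx1R8. Among all 14482 tested genes 0.0207% were called by edgeR's quasi-likelihood test at an adjusted p under 0.05, 0.0138% as higher and 0.00691% as lower, so a count of 0 among 9 genes is not set apart from that background. None of the 9 reached an unadjusted p under 0.05, as 3.39% of all tested genes did, and DESeq2 and limma-voom also called 0. Every one of the 9 had a 95% interval of the fold change within 1.5-fold of no change, as had 81.4% of all tested genes and all 9310 genes at least as abundant as CDKN2B. The median log2 fold change was 0.011 over the 9 genes and -0.0018 over all tested genes. CCND2 was too scarce to test.

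**Figure D1:**
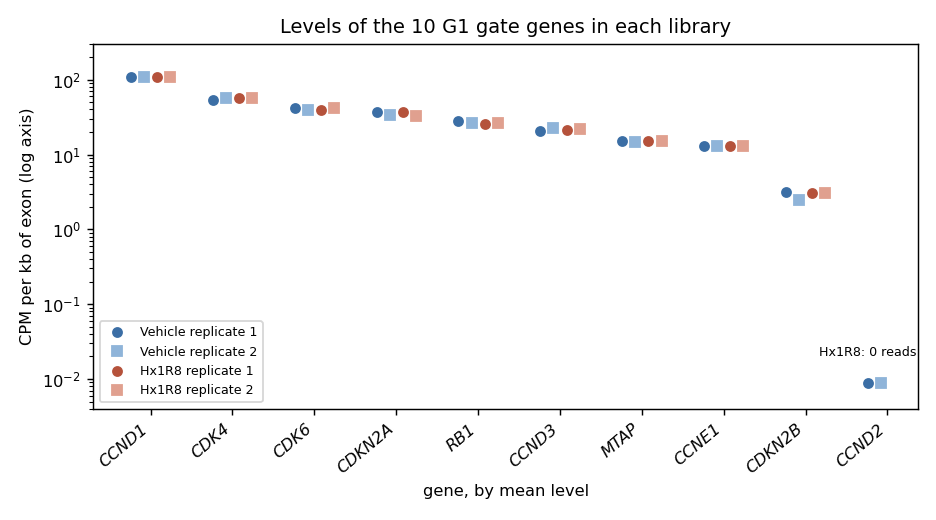
Levels of the 10 genes in each library, as CPM per kb of exon on a log axis, ordered by mean, with Vehicle in blue and Hx1R8 in red (circles replicate 1, squares replicate 2). CCND1 stands highest near 109, 8 genes lie between 2.44 and 57.4, and CCND2 is seen only as 1 read in each Vehicle library.

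Divided by listed exon length, by which levels of different genes are compared here, CCND1 led and CCND2 was last. That length sums all listed exons of a gene, and which of them are transcribed in these cells was not tested. CCND1 was at 109 CPM per kb (mean of 4 libraries), above 96.7% of tested genes. It was followed by CDK4 at 56.2, CDK6 at 40.7, CDKN2A at 35.2, RB1 at 26.6, CCND3 at 21.7, MTAP at 15.1, CCNE1 at 13.04 and CDKN2B at 2.92 CPM per kb. No gene's range over the 4 libraries overlapped that of its neighbour in this order, and the closest neighbours, MTAP with CCNE1 and CDK6 with CDKN2A, were 1.16-fold apart. The order depends on how length is counted: only 42.2% of the 1865 exon bases of CDK4 are its own, and the others overlap TSPAN31 on the opposite strand. With unshared bases only, CDK4 came first at 133 CPM per kb against 109 for CCND1, and CDK6 (41.0) and CDKN2A (40.6) overlapped, while the places of the other genes stayed as above. Which of these lengths suits the counts was not tested, and the sources used here do not give the counting rule for shared bases.

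CDKN2A, whose alternative first exons give the CDK inhibitor INK4a and the MDM2 inhibitor ARF, was well expressed. Its level differed more between replicates than between groups. It was at 96.6 and 86.8 CPM in the Vehicle replicates and at 96.5 and 83.8 CPM in the Hx1R8 replicates. In each group replicate 1 was the higher library, and the groups overlapped. Nothing in the labels pairs samples beyond that number, and across all tested genes the deviations of same-numbered samples had a correlation of 0.03. Its log2 fold change of -0.029 had an SE of 0.060 (edgeR, adjusted p = 0.9999), and the 95% limits of the fold were 0.901 and 1.07. The difference between replicates was 1.11-fold in Vehicle and 1.15-fold in Hx1R8. Without Vehicle replicate 1 the log2 value was 0.05 and without Hx1R8 replicate 2 it was 0.07. It was -0.10 without Vehicle replicate 2 and -0.13 without Hx1R8 replicate 1.

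The CDKN2A row (hg38, chromosome 9, 21967752 to 21995324, minus strand) sums reads over both products, so INK4a and ARF cannot be separated here. Its 6 exon blocks, counted along the chromosome, include block 4 (21974404 to 21975133), which holds the first exon of INK4a, and block 5 (21994139 to 21994491), which holds that of ARF. In GENCODE v29 the start codons of 4 CDKN2A transcripts lie in block 4, of 2 in block 5 and of 5 in block 3, the exon that both products share. The row counts 2582 exon bases, of which 86.7% are unshared and the others overlap CDKN2B-AS1 or CDKN2A-DT. Both opposite-strand genes were low, CDKN2B-AS1 at 1.51 to 2.05 CPM and CDKN2A-DT at no more than 0.174 CPM. The windows around the start ahead of INK4a and around the most distal start of the row are shown because this 1 row joins transcripts from both (RefSeq, GRCh38.p14, minus strand, chr9:21974808-21975107 and chr9:21995275-21995574). Capitals mark GGGCGG on either strand, the GC box.
CDKN2A, INK4a start: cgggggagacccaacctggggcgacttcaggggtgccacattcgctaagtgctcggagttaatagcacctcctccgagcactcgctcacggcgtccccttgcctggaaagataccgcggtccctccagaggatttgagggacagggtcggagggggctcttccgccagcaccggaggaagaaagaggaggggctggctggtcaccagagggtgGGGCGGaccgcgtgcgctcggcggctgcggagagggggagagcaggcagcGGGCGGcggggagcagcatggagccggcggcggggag
CDKN2A, distal start: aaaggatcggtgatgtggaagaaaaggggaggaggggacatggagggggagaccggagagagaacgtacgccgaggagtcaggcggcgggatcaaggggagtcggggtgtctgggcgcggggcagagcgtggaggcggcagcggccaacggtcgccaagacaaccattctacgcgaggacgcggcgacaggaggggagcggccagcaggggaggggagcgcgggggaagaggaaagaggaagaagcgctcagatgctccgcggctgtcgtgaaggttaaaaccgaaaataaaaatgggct
The GC box occurs 2 times in the first window and 0 times in the second, and 45% of the 35116 RefSeq windows of that length hold it. Neither window holds CACGTG (7.26% of windows), TTTCCCGC (1.63%) or TTTGGCGC (0.652%) on either strand.

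CDKN2B, which makes the INK4 inhibitor INK4b, was the least abundant tested gene of the set and the least reproducible. It was at 12.6 and 9.71 CPM in Vehicle and at 12.1 and 12.2 CPM in Hx1R8. Vehicle replicate 2 was the low library, and the Vehicle values spanned both Hx1R8 values. The log2 change from Vehicle to Hx1R8 was 0.12 (SE 0.11, adjusted p = 0.9999), with a 95% interval of the fold from 0.928 to 1.28, the widest of the 9. Vehicle replicate 2 set the sign: the log2 value was -0.05 without it and 0.32 without Vehicle replicate 1, where the interval ran from 1.04 to 1.50 and the gene was not called (adjusted p = 0.318).

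CDKN2A and CDKN2B also resemble each other in sequence, which bears on how their reads can be told apart. Their coding sequences (GENCODE v29) were identical at 83.1% of 408 aligned bases, with a longest shared run of 80 bases, against 62.4% to 69.4% and runs of 14 to 23 bases for the CDK4 with CDK6, D cyclin and E cyclin pairs. A read that falls inside the shared run fits both genes, and the sources used here do not say how such reads were counted. Per length, CDKN2A took 92.2% and 93.2% of the sum of both genes in Vehicle and 92.5% and 91.4% in Hx1R8. These shares overlapped (exact permutation test, two-sided, p = 0.667, the smallest possible being 0.3333 with 2 against 2 libraries).

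MTAP, the enzyme that recycles methylthioadenosine in methionine salvage, was expressed at a level close to that of CDKN2A in reads. It was at 91.3 and 88.4 CPM in Vehicle and at 91.2 and 92.5 CPM in Hx1R8. The groups overlapped, and the log2 change from Vehicle to Hx1R8 was 0.03 (SE 0.05, adjusted p = 0.9999), with a 95% interval of the fold from 0.949 to 1.10. MTAP lies on chromosome 9 (21802636 to 21867081) and shares no exon base with another listed gene. Transcripts of all 3 genes of the 9p21 group were thus present in every library: 1503 to 1757 reads for CDKN2A, 168 to 255 for CDKN2B and 1530 to 1940 for MTAP.

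Of the 28 other 9p21 genes listed around them, 7 were above 1 CPM in all 4 libraries. FOCAD was at 58.9 to 61.2 CPM, KLHL9 at 57.5 to 60.8, TUSC1 at 15.0 to 16.7, ELAVL2 at 10.97 to 13.7 and MLLT3 at 7.71 to 8.65 CPM. DMRTA1 was at 2.43 to 3.54 CPM and CDKN2B-AS1 as given above. The remaining genes, among them the type I interferon genes between FOCAD and MTAP, were scarce, with 14 at 0 reads in all libraries and 19 at 3 reads or fewer in each. None of the 7 tested passed the threshold, which 0.0207% of all tested genes passed, and their log2 fold changes ran from -0.14 to 0.11.

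**Figure D2:**
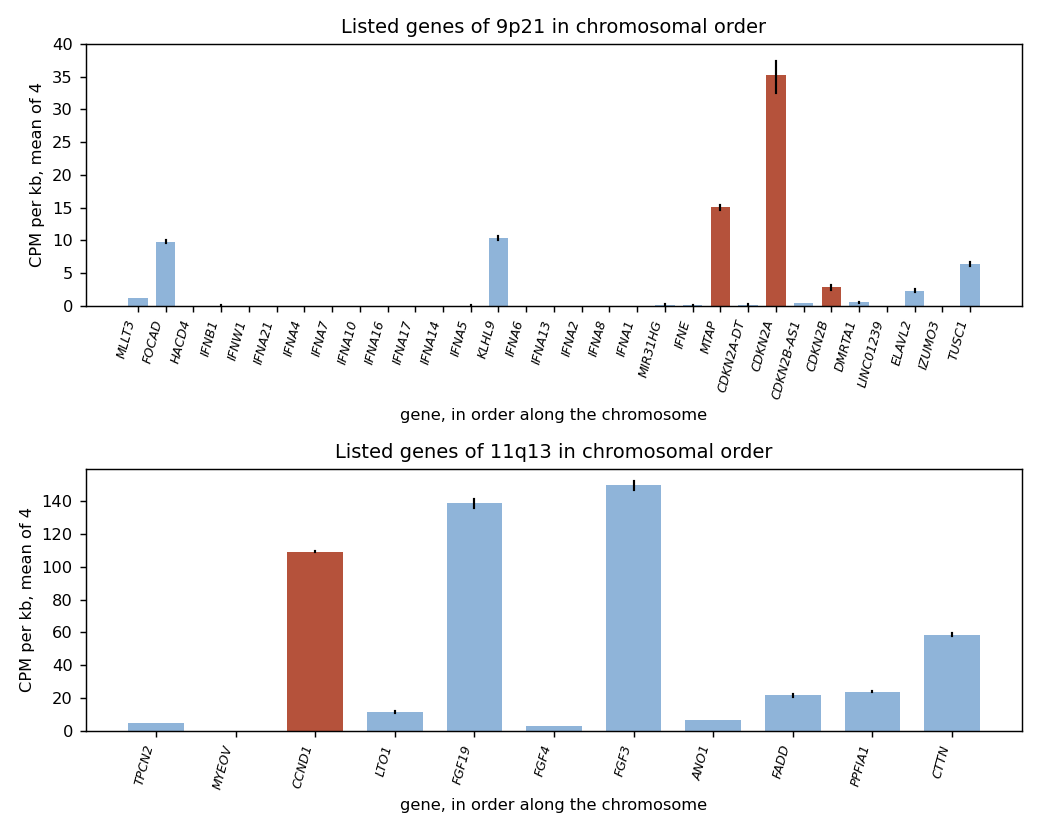
Mean CPM per kb of exon over the 4 libraries for the listed genes of 9p21 (top) and 11q13 (bottom), in order along the chromosome. Genes of the set, MTAP included, are in red and others in blue (black lines, lowest to highest library). MTAP at 15.1 and CDKN2A at 35.2 stand above all other 9p21 genes listed, and CCND1 at 109 lies near FGF19 at 139 and FGF3 at 150.

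CDK4 and CDK6, the kinases that the D cyclins activate, were both abundant. CDK4 was at 100 and 106 CPM in Vehicle and at 107 and 106 CPM in Hx1R8. Both Hx1R8 values lay above both Vehicle values, by less than the 1.06-fold difference between the Vehicle replicates. The log2 change from Vehicle to Hx1R8 was 0.05 (SE 0.05, adjusted p = 0.9999), with a 95% interval of the fold from 0.963 to 1.11. CDK6 had more reads, at 493 and 467 CPM in Vehicle and 471 and 490 CPM in Hx1R8, on 11804 exon bases. The CDK6 groups overlapped fully, where the log2 value of 0.0019 had an SE of 0.046 (edgeR, adjusted p = 0.9999) and the fold 95% limits of 0.938 and 1.07.

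Per length, CDK4 made up 56.2% and 58.9% of the sum of CDK4 and CDK6 in Vehicle and 59.0% and 57.8% in Hx1R8 (exact permutation test, two-sided, p = 0.667). With unshared exon bases that share was 75.1% to 77.2%, so the balance of the kinases depends on the length used. CDK4 (chromosome 12, 57747727 to 57752310, minus strand) has 3 copies of CACGTG, the E-box that MYC binds, in the window around its start (RefSeq, GRCh38.p14, chr12:57752261-57752560). The window is shown because 3 or more copies occur in 0.094% of the 35116 windows of that length, and capitals mark them.
CDK4: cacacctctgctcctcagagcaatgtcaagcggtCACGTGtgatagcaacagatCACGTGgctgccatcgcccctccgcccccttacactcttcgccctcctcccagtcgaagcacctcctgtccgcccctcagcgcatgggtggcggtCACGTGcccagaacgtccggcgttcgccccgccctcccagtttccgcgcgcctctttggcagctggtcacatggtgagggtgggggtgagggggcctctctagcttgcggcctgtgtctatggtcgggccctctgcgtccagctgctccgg
The motif reads the same on both strands, so each place was counted once. The data hold no measure of binding at these letters.

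The D-type cyclins were dominated by CCND1. CCND1 was at 462 and 461 CPM in Vehicle and at 465 and 466 CPM in Hx1R8, on chromosome 11 (69641156 to 69654474) with no shared exon base. All 4 libraries lay within 1.01-fold of each other. Both Hx1R8 values were above both Vehicle values, and the log2 change from Vehicle to Hx1R8 was 0.011 (SE 0.045, adjusted p = 0.9999), with a 95% interval of the fold from 0.946 to 1.07. That gap was wider than both replicate differences, which also held for 18.7% of all tested genes.

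CCND3 was the other D cyclin detected, at 65.8 and 72.4 CPM in Vehicle and 66.7 and 70.0 CPM in Hx1R8. The Vehicle replicates enclosed both Hx1R8 values. The log2 change from Vehicle to Hx1R8 was -0.013 (SE 0.059, adjusted p = 0.9999), with an interval of the fold from 0.912 to 1.08, and its sign turned without Vehicle replicate 2 (0.06) and without Hx1R8 replicate 1 (0.02). CCND2 had 1 read in each Vehicle library and 0 reads in each Hx1R8 library, at or below the floor of 3 counts, which stands for 0.143 to 0.174 CPM. No fold change is given for it. Over the 4 libraries its 2 reads carry an exact Poisson 95% interval of 0.242 to 7.22 reads, for counting error only. Per length, with CCND2 set to the floor in each library, CCND1 was at least 4076-fold higher in every library.

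CCND1 accounted for 84.0% and 82.6% of the per-length sum of the D cyclins in Vehicle and 83.8% and 83.2% in Hx1R8, and CCND3 for 16.0% and 17.4% against 16.1% and 16.8%. These shares overlapped between the groups (exact permutation test, two-sided, p = 1 for each). Around CCND1, 9 of 10 listed 11q13 genes were above 1 CPM in all libraries. The growth factor genes FGF19 and FGF3 were at 248 to 258 and 226 to 234 CPM, CTTN, an actin-binding protein gene, at 189 to 197 CPM and PPFIA1 at 154 to 157 CPM. FADD was at 38.0 to 42.1 CPM, ANO1 at 30.8 to 32.6, LTO1 at 27.6 to 29.5, TPCN2 at 22.7 to 24.3 and FGF4 at 8.43 to 9.75 CPM, whereas MYEOV had at most 4 reads. None of the 9 tested passed the threshold, which 0.0207% of all tested genes passed, and their log2 fold changes ran from -0.06 to 0.11. Per length FGF3 (150) and FGF19 (139) stood above CCND1 (109 CPM per kb). No measure of DNA copy number was part of these data.

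RB1, the substrate of the cyclin D kinases, was transcribed in every library. It was at 132 and 127 CPM in Vehicle and at 123 and 127 CPM in Hx1R8, from 2117 to 2665 reads over 27 exon blocks on chromosome 13 (48303747 to 48481890). Hx1R8 replicate 1 was the lowest library, and the other Hx1R8 value lay between the Vehicle values. The log2 change from Vehicle to Hx1R8 was -0.05 (SE 0.05, adjusted p = 0.9999), with an interval of the fold from 0.901 to 1.04. A row total does not show whether the transcript is intact or whether the protein is made.

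CCNE1, which activates CDK2 after RB is inactivated, had the smallest spread of the 9 genes over these 4 libraries. It was at 25.4 CPM in both Vehicle libraries and at 25.6 CPM in both Hx1R8 libraries, from 439 to 536 reads. The groups did not overlap, although all 4 libraries lay within 1.01-fold of each other, and the log2 change from Vehicle to Hx1R8 was 0.011 (SE 0.078, adjusted p = 0.9999). Its fold had 95% limits of 0.903 and 1.12. That SE was larger than those of the other tested genes of the set except CDKN2B. The small spread is therefore not read as a property of the gene. In the sum with CCNE2, the other E-type cyclin gene, CCNE1 took 62.0% and 65.3% per length in Vehicle and 64.1% and 63.5% in Hx1R8 (exact permutation test, two-sided, p = 1). With unshared bases, 44.2% of those of CCNE2, the CCNE1 share was 41.9% to 45.4%, so which E cyclin is more abundant depends on the length used.

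**Figure D3:**
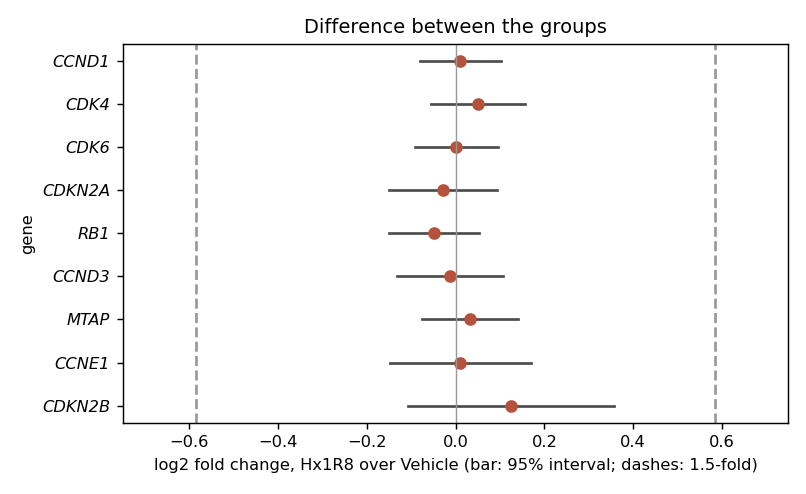
Log2 fold change of Hx1R8 over Vehicle for the 9 tested genes (points, n = 2 libraries per group). Bars are 95% intervals derived from the edgeR test, and dashed lines mark 1.5-fold. All 9 intervals include 0 and lie inside the dashed lines, and that of CDKN2B is the widest.

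**Figure D4:**
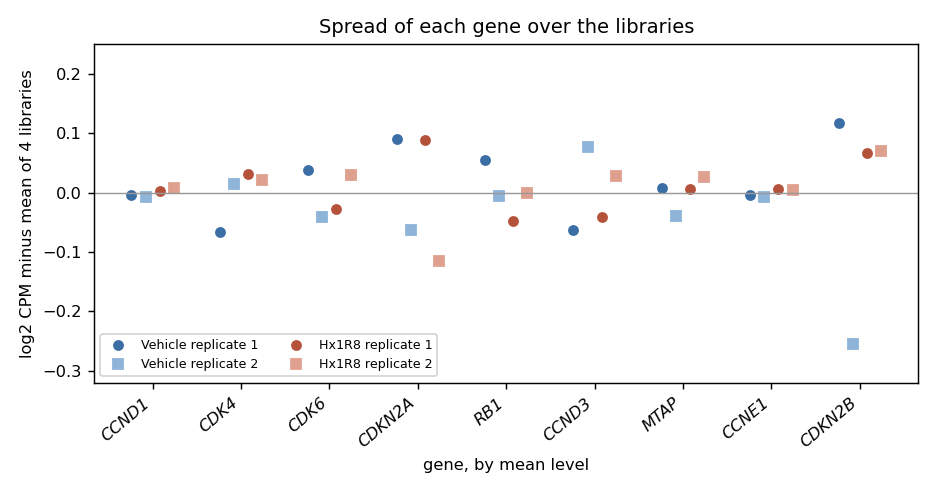
Log2 CPM of each of the 9 tested genes in each library, minus the gene's mean over the 4 libraries (colours by group, circles replicate 1, squares replicate 2). CCND1 and CCNE1 are nearly level, CDKN2A is higher in both libraries numbered 1, and CDKN2B is low in Vehicle replicate 2.

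For most of the set, as for most tested genes, the larger replicate difference exceeded the group difference. In 7 of the 9 genes the difference between the group means was smaller than the larger of the 2 replicate differences. The exceptions were CCND1 and CCNE1, and a group difference above both replicate differences also occurred in 18.7% of all tested genes. The count of 7 in 9 is therefore not read as a result about the set. In 3 of 9 genes, CDK4, CCND1 and CCNE1, both Hx1R8 libraries lay above both Vehicle libraries. Groups that do not overlap occurred in 29.8% of all tested genes, with Hx1R8 above in 14.7% and below in 15.2%, and a count of 3 in 9 is not read as a result. The absolute log2 fold change had a median of 0.029 over the 9 genes and 0.036 over the 9310 genes at least as abundant as CDKN2B.

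The listed genes of the G1 pathway and around MTAP metabolism were transcribed and likewise held no called gene. All 60 genes of 8 pathway lists were tested. In edgeR 0 were past the threshold in either direction, against 0.0207% of all tested genes. An unadjusted p under 0.05 was reached by 0 of them, against 3.39% of all tested genes, and 0 were called by DESeq2 or limma-voom. All 60 had intervals within 1.5-fold of no change, as had 81.4% of all tested genes. So had all 9310 genes at least as abundant as CDKN2B. The counts of 0 are not set apart from the shares over all tested genes, and the bounded intervals are not read as a result about the lists. The median log2 fold change was 0.019, with 35 values above 0 and 25 below. Without Vehicle replicate 1, which leaves 1 Vehicle library, SMS (spermine synthase) was at 0.12, against 0.04 with all libraries.

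**Figure D5:**
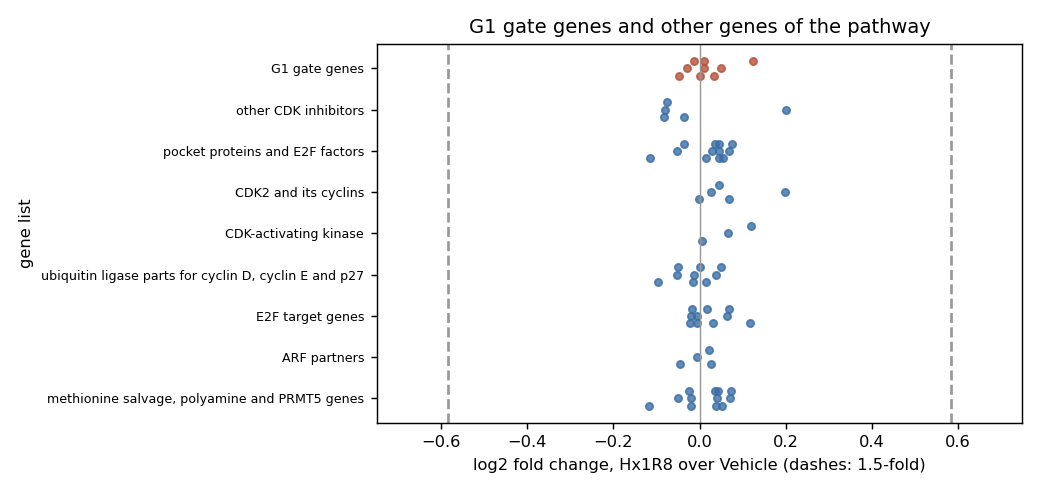
Log2 fold changes of the 9 tested genes of the set, MTAP included (red), and of the genes of the 8 pathway lists (blue). Dashed lines mark 1.5-fold, and points are spread vertically for visibility. All points lie between -0.12 and 0.20, and none passed the threshold.

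Among the 5 other CDK inhibitors, CDKN1B, which restrains cyclin E with CDK2, was the most abundant, with means of 36.6 CPM (Vehicle) and 34.6 CPM (Hx1R8) (log2 -0.08, SE 0.07). CDKN1A, an inhibitor of CDK2, was at 7.41 and 7.24 CPM. CDKN2D had the largest value of the list (0.20, SE 0.14), and CDKN2C and CDKN1C were both at -0.08 (SE 0.10 and 0.19). The 5 genes together summed to 67.6 to 72.2 CPM in Vehicle and 66.3 to 69.2 CPM in Hx1R8, which overlapped.

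The pocket protein and E2F list of 12 genes had a median of 0.04, with 9 values above 0. TFDP1, the dimer partner of E2F proteins, was the most abundant, with means of 217 CPM (Vehicle) and 219 CPM (Hx1R8). RBL1, an RB relative, was at 0.08 (SE 0.06), the activator E2F2 at -0.12 (SE 0.06), the atypical repressor E2F7 at 0.07 (SE 0.06) and E2F4 at -0.05 (SE 0.05). E2F1 averaged 102 CPM with water and 105 CPM with Hx1R8.

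Downstream of RB, the 10 E2F target genes had a median log2 fold change of 0.0061, with 5 values on each side of 0. TYMS, the thymidylate synthase gene, was at 0.12 (SE 0.06), the helicase gene MCM6 at 0.06 (SE 0.05) and CDC6 at 0.03 (SE 0.05). Among CDK2 and its partners, CDK2 averaged 101 CPM with water and 104 CPM with Hx1R8 (0.05, SE 0.05), CDC25A, which activates CDK2, was at 0.07 (SE 0.07), CCNA2 at 0.03 (SE 0.05) and CCNA1 at 0.20 (SE 0.17). The 3 genes of the CDK-activating kinase lay at 0.12 (CDK7, SE 0.09), 0.07 (MNAT1, SE 0.08) and 0.0045 (CCNH, SE 0.062).

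None of the 9 ubiquitin ligase genes that act on cyclins or on the CDKN1B protein was called, against 0.0207% of all tested genes. SKP2, the subunit that recognises the CDKN1B protein, was at -0.05 (SE 0.05) and its binding partner SKP1 at -0.05 (SE 0.05). RBX1 was at -0.10 (SE 0.08) and FBXO31 at 0.05 (SE 0.06), and the list had a median of -0.01. The ARF partner MDM2, a ubiquitin ligase, averaged 95.5 CPM with water and 92.4 CPM with Hx1R8 (-0.05, SE 0.05). NPM1, which holds ARF in the nucleolus, was at 1735 and 1760 CPM (0.02, SE 0.05), and MDM4 at -0.0067 (SE 0.060). Of the 12 methionine salvage, polyamine and PRMT5 genes, which share metabolites with MTAP, 7 were above 0 with a median of 0.04. MRI1, the enzyme after MTAP in the salvage route, was at -0.12 (SE 0.06), MAT2A, which makes S-adenosylmethionine, at 0.05 (SE 0.05), MAT2B at 0.07 (SE 0.05) and WDR77, the partner of PRMT5, at 0.07 (SE 0.06).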

How the data were processed

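RNA sequencing libraries were made from 1.5 µg of total RNA of NCI-H520 cells grown with 15% fetal bovine serum, per the labels' protocols. The authors deposited raw counts per gene for each library. The submitters' processing notes name STAR 2.7.9 and hg38. The sources used here give no counting tool, annotation or strand setting, so reads of overlapping genes on opposite strands may be mixed. After 2 lines holding 1 broken row without reads were left out, 28277 genes remained, and unnamed rows had 0 reads.

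Differences were tested in edgeR 4.0.16 (R 4.3.3) by the quasi-likelihood test, two-sided, with TMM factors, filterByExpr and group as the only term. P-values were adjusted over all 14482 tested genes (Benjamini-Hochberg, threshold 0.05). Intervals rest on 2 residual and 36.9 prior degrees of freedom. Levels are CPM scaled by TMM, divided by the listed exon length where genes are compared. A floor of 3 counts corresponds to 0.143 to 0.174 CPM, and intervals on counts cover counting error only.

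Alternatives were other normalizations, filters and tools (DESeq2 1.42.0, limma 3.58.1), robust dispersions, a replicate block, unshared exon bases and each library left out. The 10 genes, the lists and the tests were chosen with earlier results of these data known. All 10 genes were named. Of each list up to 4 genes by smallest unadjusted p were named, and of chromosomal neighbours those above 1 CPM in all 4 libraries. CDKN1A, TFDP1, E2F1, MYEOV, CCNE2, SMS, CDKN2A-DT, CCND2-AS1 and the cell type markers were named outside that rule, after their values were seen. Some genes under the rule are not reported here. Sequences came from RefSeq (GRCh38.p14) promoter windows of 250 bases before and 50 after a start, and from GENCODE v29 transcripts aligned with Biopython 1.88.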

Additional observations from a re-analysis of the deposited data

How the results depend on the processing

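Over 13 alternatives none of the 9 tested genes was called, and of 117 recomputed log2 fold changes 110 kept their sign. The 7 that turned all arose with 1 library left out, where the lone sample is assumed to vary like the other group: CDKN2A ranged from -0.129 to 0.0736, CDKN2B from -0.0467 to 0.323, CDK6 from -0.0350 to 0.0424 and CCND3 from -0.0801 to 0.0598, and the cause was not tested. Over all genes, 1 gene in place of 2 was higher by DESeq2 and by robust dispersions. With 1 library left out, between 2 and 41 genes were higher, between 1 and 38 were lower and 0 or 1 of the pathway list genes were called, the most without Vehicle replicate 1, and 8 or 9 of the 9 genes stayed bounded within 1.5-fold. Unadjusted p-values of fits with 1 library left out are not read, because 1 group then holds a single library. Without Vehicle replicate 1 CDKN2B was at 0.323, and without Vehicle replicate 2 CDKN2A was at -0.10. With unshared exon bases the mean share of CDK4 was 76.4% (main 58.0%), of CCNE1 43.7% (63.7%), of CDKN2A 93.3% (92.3%) and of CCND2 0.00345% (0.00338%), because the lengths changed. CCND2's share, resting on 2 reads, was 0.00225% to 0.00451% with a library left out. A replicate block left 2 genes higher, 1 lower and 0 of the 9 called. Nothing in the labels pairs the samples beyond the number, and across genes the deviations of samples with the same number had a correlation of 0.03. Depth limits any statement on CCND2.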

Other observations

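Genes beside the other G1 gate genes were mostly transcribed. Of the 39 tested genes on all neighbour lists 0 were called (edgeR), against 0.0207% of all tested genes. None of these 39 had an unadjusted p under 0.05, against 3.39% of all tested genes. Around RB1, ITM2B was at 110 to 116 CPM, MED4 at 27.7 to 31.2 and RCBTB2 at 7.05 to 7.92 CPM. LPAR6, a receptor gene on the opposite strand whose listed span lies inside that of RB1, was at 19.2 to 21.5 CPM. Around CCNE1, UQCRFS1 was at 112 to 120 CPM, URI1 at 99.8 to 112, POP4 at 45.3 to 48.6, C19orf12 at 18.4 to 23.2 and PLEKHF1 at 7.05 to 8.07 CPM, so CCNE1 (25.4 to 25.6 CPM) stood between them.

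Around CCND2, which had 2 reads in all, TIGAR at a gap of 15.9 kb was at 24.5 to 26.4 CPM and PARP11 at 3.64 to 4.05 CPM, while the antisense gene CCND2-AS1 had 0 reads. Beside CDK4, TSPAN31 was at 15.1 to 16.9 CPM, MARCHF9 at 22.4 to 25.1, METTL1 at 13.6 to 15.5 and CYP27B1 at 4.79 to 6.39 CPM. Beside CDK6, GATAD1 was at 51.4 to 56.0 CPM, FAM133B at 18.6 to 26.3 and SAMD9 at 2.21 to 3.004 CPM. Beside CCND3, BYSL was at 40.9 to 45.6 CPM, TAF8 at 28.1 to 30.6, MED20 at 23.6 to 28.0 and USP49 at 12.4 to 15.1 CPM.

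Over the 4 libraries, the gene whose centred log2 CPM lay nearest to that of CDKN2A was UQCRB, at a root-mean-square distance of 0.0051, among 6395 genes whose mean log2 CPM was 5 or more. Of these, 184 lay within 0.05 of CDKN2A, and UQCRB ranged from 83.5 to 96.9 CPM. Nearest to RB1 was TUSC3 (0.0034) and to CCND1 NFATC3 (0.0021), where 2560 and 4203 genes lay within 0.05. The count within 0.05 was smaller for genes that varied more. The log2 range over the libraries was 0.015 for CCND1, 0.103 for RB1 and 0.205 for CDKN2A. CDKN2B, with a range of 0.368, had 3 genes within 0.05. With 4 libraries from 2 groups, these distances are descriptions only.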
